A study of Mus musculus with 3 samples.

Results

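Genes that carry hexoses into the cell, run steps of glycolysis or hold pyruvate back from oxidation were followed in nuclei of mouse interscapular brown adipose tissue (BAT). The 10 members, Slc2a4, Slc2a1, Slc2a5, Hk2, Pfkl, Pgam1, Pkm, Ldhb, Pdk2 and Pdk4, were taken by name and are all listed in each table, among 23041 genes in the untreated, 23364 in the sham and 23089 in the denervated library. All 3 libraries are labelled as wild-type adult C57Bl6 mice, although the run name in the header of the denervated table holds the letters nKO, which no source used here explains. The first came from BAT without treatment, the second from BAT labelled sham, and the last from denervated BAT, for which the study cut the intercostal nerves of 1 side and took nuclei at day 3. The study's legends give more than 1 mouse for the untreated and the denervated nuclei, so mice cannot be told apart within a library. Its legend for the denervated mice also lists tamoxifen, which the labels do not name. The sham library is known here from its labels alone, and its day of sampling is not given in the sources used here. The preparation used the layer of digested tissue that floats, with brown adipocytes (BAs) and pieces of vessels. With 1 library per condition there was no replicate spread and no test, so conditions cannot be told apart from libraries, and intervals cover counting error only.

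Brown fat burns fatty acids and glucose to make heat, and its sympathetic nerves raise its glucose uptake. Slc2a4 encodes GLUT4, the carrier that insulin moves to the cell surface, Slc2a1 encodes GLUT1, a carrier of basal uptake, and Slc2a5 encodes GLUT5, a fructose carrier. Hk2 traps glucose as its phosphate, Pfkl (phosphofructokinase, liver form) commits it to glycolysis, and Pgam1 and Pkm act near the end of that chain. Ldhb interconverts lactate and pyruvate. Pdk2 and Pdk4 are kinases that switch off pyruvate dehydrogenase, and Pdk4 is known to be high when cells burn fatty acids in place of glucose.

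The promoters of 4 members are shown first, Slc2a5 and Hk2, which were lower in the sham library, and Pdk4 and Ldhb, which were higher there. Each window runs from 250 bases before to 50 bases after the RefSeq start, 5′ to 3′ on the coding strand, on GRCm38.p6. Capitals mark a GC box, a CCAAT box or a nuclear receptor half-site, on either strand.
Slc2a5, chr4:150119094-150119393, plus strand: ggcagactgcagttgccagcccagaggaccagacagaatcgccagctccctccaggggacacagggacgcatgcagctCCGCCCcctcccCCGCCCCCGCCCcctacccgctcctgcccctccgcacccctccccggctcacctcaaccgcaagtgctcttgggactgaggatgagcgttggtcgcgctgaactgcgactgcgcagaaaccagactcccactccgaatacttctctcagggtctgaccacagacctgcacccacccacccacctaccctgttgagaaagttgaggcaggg
Hk2, chr6:82774405-82774704, minus strand: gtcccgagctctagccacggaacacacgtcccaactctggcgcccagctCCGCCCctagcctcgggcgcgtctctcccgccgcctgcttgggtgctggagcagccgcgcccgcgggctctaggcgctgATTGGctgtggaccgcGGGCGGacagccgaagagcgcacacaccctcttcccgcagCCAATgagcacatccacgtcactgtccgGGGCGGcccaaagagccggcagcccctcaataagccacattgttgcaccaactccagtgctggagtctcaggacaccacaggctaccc
Pdk4, chr6:5496229-5496528, minus strand: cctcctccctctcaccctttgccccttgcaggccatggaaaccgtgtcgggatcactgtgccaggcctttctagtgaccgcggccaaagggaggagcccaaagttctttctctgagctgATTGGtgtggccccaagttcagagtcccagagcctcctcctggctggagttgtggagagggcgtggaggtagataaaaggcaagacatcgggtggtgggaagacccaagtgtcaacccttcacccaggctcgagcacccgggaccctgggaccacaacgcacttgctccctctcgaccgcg
Ldhb, chr6:142507908-142508207, minus strand: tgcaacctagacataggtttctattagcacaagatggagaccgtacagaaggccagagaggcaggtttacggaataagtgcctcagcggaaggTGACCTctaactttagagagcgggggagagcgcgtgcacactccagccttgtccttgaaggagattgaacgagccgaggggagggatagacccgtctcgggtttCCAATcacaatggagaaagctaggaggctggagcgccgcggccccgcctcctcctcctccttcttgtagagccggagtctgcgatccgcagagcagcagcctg

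The GC box, searched as GGGCGG, stood 3 times in the Slc2a5 and 3 times in the Hk2 window, and in 35.7% of all 32851 promoters of this length. It was not found in the windows of Pdk4 and Ldhb. Among the other members it was in the windows of Slc2a1, Pfkl, Pgam1 and Pkm and not in those of Pdk2, and nothing was read from this about the sham values. CCAAT was in the Hk2, Pdk4 and Ldhb windows and in 37.4% of all. The half-site, AGGTCA, was in the Ldhb window and in 16.3% of all. The E-box CACGTG was in none of the 4 windows and in 7.15% of all, and among the members it was found for Pdk2 alone. The TATA box TATAAA, in 13.6% of all, was found for Slc2a1 alone. No site of one motif overlapped one of another in the 4 windows shown. A promoter was matched for 9 of 10 members, and Slc2a4 had no entry. These matches describe letters, and no binding was measured.

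Levels are given as CPM, the unique molecular identifiers (UMIs, each a molecule counted once) of a gene scaled to a fixed total for a class of nuclei, with exact Poisson 95% intervals. The sums do not separate fewer transcribing nuclei from less RNA per nucleus. The untreated table held 13707 barcodes, the sham one 15368 and the denervated one 15822, of which 10662, 12020 and 9757 were kept as nuclei, with a median of 979, 746 and 687 UMIs. Pairs of libraries shared 251 to 278 barcodes, of which at most 17 had totals within 10% of each other. Brown adipocyte-like nuclei numbered 4581 untreated, 3425 sham and 4988 denervated. All 6 adipocyte and all 8 brown markers had UMIs there, but also in endothelial-like nuclei of every library, so levels were compared. Summed brown markers were at 4964, 7005 and 6356 CPM in brown adipocyte-like nuclei, against 670, 550 and 2114 in endothelial-like nuclei. Summed endothelial markers were at 298, 316 and 249 CPM in brown adipocyte-like nuclei, against 13562, 10703 and 8758 in endothelial-like nuclei. The sham library stood apart in BAs beyond the members. Kit was at 316 untreated, 38.1 sham and 196 denervated CPM, and heat shock genes summed to 1419, 2307 and 1458. Immediate early genes in BAs summed to 534, 1372 and 597, and mitochondrial UMIs made up 6.71%, 12.9% and 2.95% of the libraries and 2.92%, 6.14% and 1.77% of the largest brown clusters. In the largest brown clusters heat shock genes were at 798, 637 and 1133 CPM and immediate early genes at 393, 354 and 519. The sham excess of both thus lay outside its largest brown cluster. The part of these differences in the sham values of the members was not tested. Ucp1, which loss of nerves is known to lower, was at 348, 403 and 312. Elovl3, a fatty acid elongase of active brown fat, was also lowest in the denervated library, at 11.5, 13.9 and 4.81, while Dio2 was at 22.2, 23.4 and 37.1 and Ppargc1a at 286, 192 and 292.

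Slc2a4 was highest in untreated and lowest in sham BAs. It was at 699.7 (682 to 718) CPM in the untreated, 448 (429.9 to 467) in the denervated and 285 (269.9 to 301) in the sham library. The 3 intervals did not overlap. The log2 ratio was -0.64 (-0.71 to -0.57) for denervated over untreated and 0.65 (0.56 to 0.75) for denervated over sham. The first came under 1.5-fold with at least 500 detected genes per nucleus (-0.55) and in nuclei thinned to 800 UMIs (-0.43). By the GENCODE annotation Slc2a4 lies on the minus strand of chromosome 11, at 69942539 to 69948188 of GRCm38, and no other annotated gene overlaps it.

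Slc2a5 was nearly missing from sham BAs. Its level was 150.2 (142 to 159) CPM in the untreated and 104 (95.3 to 113) in the denervated library, and 12.4 (9.46 to 16.0) in the sham library, from 59 UMIs. The sham level was 12.1-fold below the untreated one, a log2 ratio of -3.60 (-4.00 to -3.22), and 8.37-fold below the denervated one. Among 3530 genes within 2-fold of its mean level, 0.0283% had a lower ratio. The sham level was also the lower one in other classes, on few UMIs. Untreated and sham CPM were 18.6 and 1.75 in endothelial-like, 10.6 and 0.851 in pericyte-like, and 25.7 and 7.76 in white adipocyte-like nuclei. The intervals overlapped in the pericyte-like and white adipocyte-like nuclei. The low sham level was thus not particular to BAs, and the part of adipocyte RNA in the other classes was not tested. The gene lies on the plus strand of chromosome 4, at 150119283 to 150144169.

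Slc2a1 was close to the limit of these libraries. BAs held 18 of its UMIs in the untreated, 26 in the sham and 11 in the denervated library, or 2.16, 5.48 and 2.21 CPM. The log2 ratio of denervated to untreated had an interval from -1.20 to 1.19, so no difference was detectable at this depth. Antisense genes and a microRNA gene overlap Slc2a1, at 119108711 to 119137983 of chromosome 4, and whether counting used strand is not given in the sources used here.

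Hk2 followed the order of Slc2a4. It was at 1164 (1141 to 1187) CPM in the untreated, 874 (848 to 900.1) in the denervated and 505 (485 to 526) in the sham library. Its log2 ratio was -0.41 (-0.47 to -0.36) for denervated over untreated and -1.20 (-1.27 to -1.14) for sham over untreated. Hk2 spans 82725025 to 82774454 of chromosome 6, and an antisense gene overlaps it.

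The other glycolytic enzymes differed less. Pfkl was at 310.2 in the untreated, 181 in the sham and 259.6 in the denervated library. Pgam1 was at 247 (236 to 258) untreated, 146 (135 to 157) sham and 227 (214 to 240.2) denervated CPM, so the untreated and denervated intervals overlapped and the sham one lay below both. Pseudogenes carry the name of Pgam1, and whether counting kept their UMIs apart from those of the gene was not tested. Pkm, which makes pyruvate, was at 699.8 in the untreated, 501 in the sham and 559.8 in the denervated library. For denervated over untreated the log2 ratios were -0.26 for Pfkl, -0.12 for Pgam1 and -0.32 for Pkm, all under 1.5-fold, and that of Pgam1 changed sign after thinning (0.12).

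Ldhb and Pdk4 were highest in sham BAs. Ldhb was at 122 (115 to 129.9) CPM in the untreated, 240.3 (227 to 255) in the sham and 107 (98.2 to 117) in the denervated library. Pdk4 was at 511 (496 to 526), 1752 (1715 to 1790.2) and 473 (454 to 492) in the same order. The sham level of Pdk4 was 3.43-fold above the untreated and 3.70-fold above the denervated one, and the log2 ratio of sham to untreated was 1.78 (1.72 to 1.83). Denervated and untreated Pdk4 differed by a log2 ratio of -0.11 (-0.18 to -0.04), which turned to 0.00302 with the largest brown cluster of each library alone, so it has no stable direction. The gene lies on the minus strand of chromosome 6, at 5483351 to 5496309.

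The second kinase, Pdk2, did not share the order of Pdk4. It was at 331 (319 to 343) CPM in the untreated, 229.8 (217 to 243) in the denervated and 183 (171 to 195) in the sham library, with log2 ratios of -0.53 (-0.63 to -0.43) for denervated over untreated and -0.86 (-0.97 to -0.75) for sham over untreated. The library with the highest Pdk4 therefore had the lowest Pdk2. An antisense gene overlaps Pdk2.

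**Figure D1:**
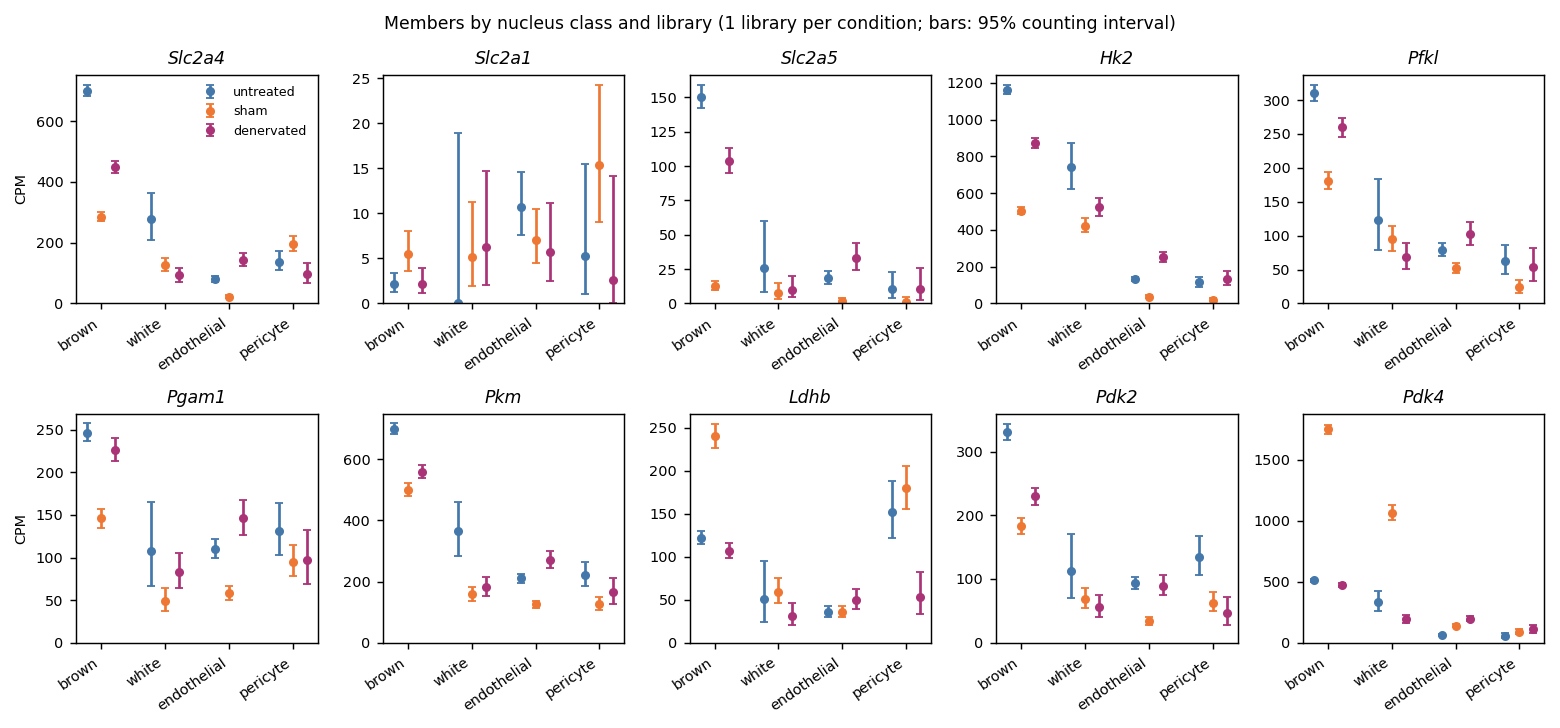
CPM (y axis) of each of the 10 members in classes of nuclei (x axis) of the untreated, sham and denervated libraries, with 95% Poisson intervals. In brown adipocyte-like nuclei the sham point is lowest for Slc2a4 (285), Slc2a5 (12.4) and Hk2 (505) and highest for Ldhb (240.3) and Pdk4 (1752).

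The members were set beside all 12618 genes with at least 50 UMIs in brown adipocyte-like nuclei over the 3 libraries. In the denervated library 0 of 10 members were at least 1.5-fold lower than in both others, as were 3.75% of genes tested, and 0 were at least 1.5-fold higher (8.72%). At 2-fold the counts of members were also 0, beside 0.793% lower and 3.21% higher. In the sham library 4 members were lower than in both others (15.8% of genes tested), Hk2, Pgam1, Slc2a4 and Slc2a5, and 3 were higher (12.4%), Ldhb, Pdk4 and Slc2a1. The Slc2a1 call rests on few UMIs, and its 5.48 CPM in sham BAs was no higher than the 7.02 of sham endothelial-like nuclei, so it was not read as a difference in expression. At 2-fold 1 member, Slc2a5, was lower there (7.08%) and 2, Pdk4 and Slc2a1, were higher (5.11%). Slc2a4 alone was higher in the untreated library than in both others (2.5%), and none was lower (3.5%).

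By pairs of libraries, Slc2a4 alone was at least 1.5-fold lower in the denervated than in the untreated library (7.59% of genes tested), and none was higher (13.3%). Of the denervated over sham ratios, 3 were lower (19.1%) and 4 higher (25.6%). Of the sham over untreated ratios, 6 were lower (20.5%) and 3 higher (17.7%). For this contrast the other members were, like Slc2a5, ranked among genes within 2-fold of their mean level. A lower ratio was held by 5.80% of these for Slc2a4, 9.74% for Hk2, 11.9% for Pfkl and 11.1% for Pgam1. The share was 29.3% for Pkm, 10.1% for Pdk2, 94.9% for Ldhb, 98.8% for Pdk4 and 94.4% for Slc2a1. The median log2 ratio of the members was -0.29 for denervated over untreated, beside 0.01 for all genes tested, and -0.77 for sham over untreated, beside -0.06. For denervated over sham it was 0.42, beside 0.06. These contrasts share libraries and are not independent.

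**Figure D2:**
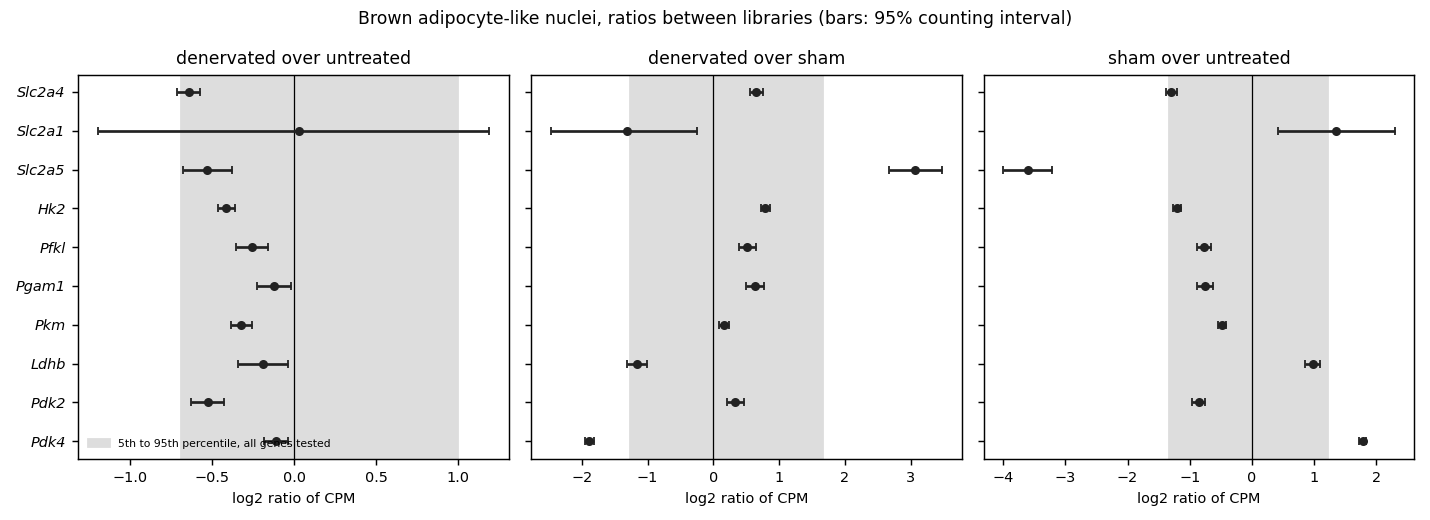
Log2 ratios of CPM of the 10 members in brown adipocyte-like nuclei for denervated over untreated, denervated over sham and sham over untreated, with 95% counting intervals (x axis, log2 ratio; y axis, gene). The gray band runs from the 5th to the 95th percentile of all 12618 genes tested. Slc2a5 (-3.60) and Pdk4 (1.78) are the extremes for sham over untreated.

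The wider pathway was read from 55 more genes of hexose carriers, GLUT4 storage, glycolysis, lactate and pyruvate, of which 45 reached 50 UMIs in BAs. In the denervated library 0 of the 45 were at least 1.5-fold lower than in both others (3.75% of genes tested) and 2 were higher (8.72%), the hexokinase Hk1 and the inositol carrier Slc2a13. Hk1 was at 18.8 in the untreated, 18.5 in the sham and 30.7 in the denervated library. Slc2a13 was at 4.08 (2.82 to 5.70), 6.95 (4.78 to 9.76) and 10.4 (7.79 to 13.7) in the same order, from 34, 33 and 52 UMIs, so its sham and denervated intervals overlapped. Hk1 and Slc2a13 were also at least 1.5-fold lower in BAs than in endothelial-like nuclei in all 3 libraries. So were 4 of 42 pathway genes tested there, beside 18.1% of all 10012 genes. The part of RNA from other nuclei in their BA levels was not tested. Against the untreated library alone 3 were lower (7.59% of genes tested), Arrdc4, Eno1 and Gapdh, with log2 ratios of -1.16, -0.64 and -1.07, and 3 were higher (13.3%), Hk1, Slc2a13 and the glucose carrier Slc2a3, with 0.70, 1.35 and 0.72. Arrdc4 encodes an arrestin-like protein that restrains glucose uptake, and Gapdh and Eno1 act in lower glycolysis.

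In the sham library 11 of the 45 (24.4%) were lower than in both others, beside 15.8% of genes tested, and 6 (13.3%) were higher, beside 12.4%, which is near the background. Aldoa (aldolase A) was at 1847 in the untreated, 788 in the sham and 1559 in the denervated library. Among 8 genes for pyruvate entry and pyruvate dehydrogenase, 3 were lower in the sham library (beside 15.8% of genes tested) and 0 higher (12.4%), too few genes to set them apart from the background. These were Pdhb at 888 in the untreated, 345 in the sham and 601 in the denervated library, Pdha1 at 519.7 in the untreated, 322 in the sham and 487 in the denervated library, and Dlat at 638 in the untreated, 347 in the sham and 546 in the denervated library. All 3 encode components of the pyruvate dehydrogenase complex. The lactate carrier Slc16a1 was at 473 in the untreated, 282 in the sham and 474 in the denervated library. On the other side stood Txnip, which restrains glucose uptake, at 842 in the untreated, 1327 in the sham and 822 in the denervated library, and Pfkfb3, which makes an activator of phosphofructokinase, at 410.4 in the untreated, 640.2 in the sham and 344 in the denervated library. Arrdc4, a relative of Txnip, was at 31.3 in the untreated, 3.16 in the sham and 14.0 in the denervated library, and its sham value rests on 15 UMIs.

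**Figure D3:**
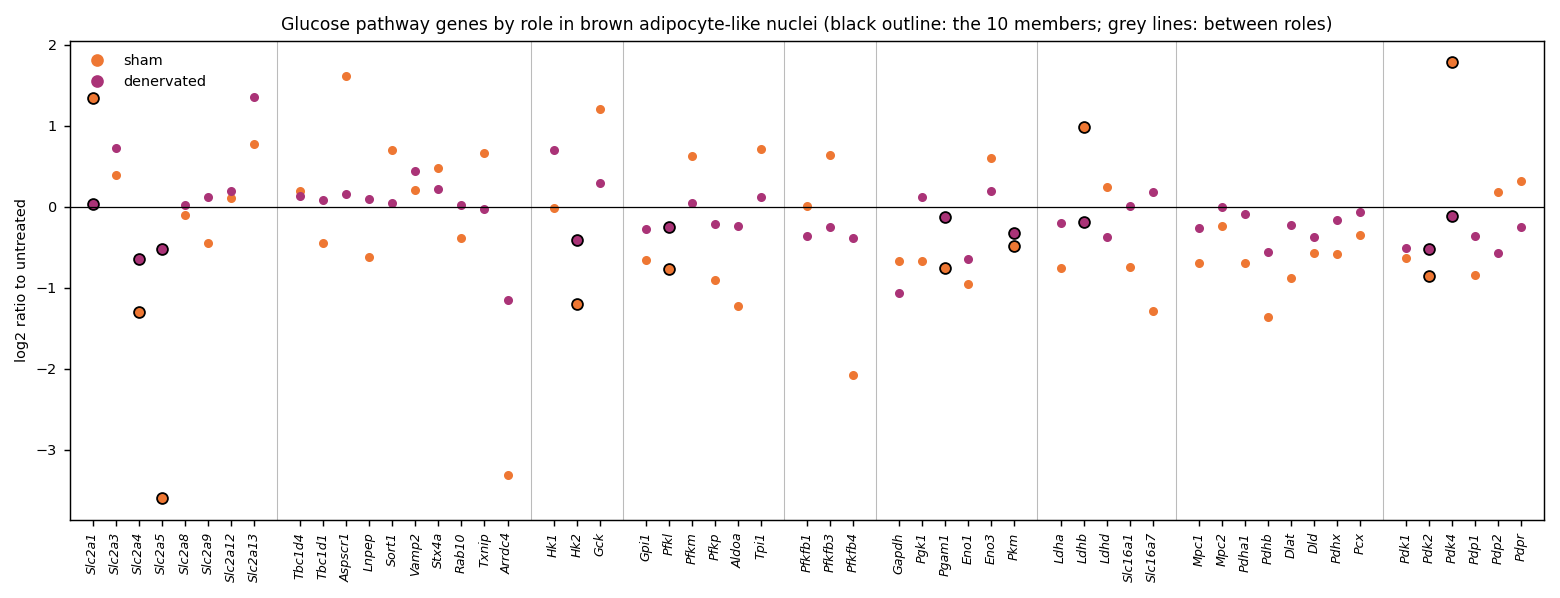
Log2 ratio to the untreated library (y axis) of the 10 members (black outline) and 45 other pathway genes in brown adipocyte-like nuclei, grouped by role along the x axis, for the sham (orange) and the denervated (purple) library. The lowest sham values are those of Slc2a5 (-3.60), Arrdc4 (-3.31) and Pfkfb4 (-2.09).

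Brown adipocyte-like nuclei formed 3 clusters in each library, made without the members and the pathway genes. An untreated cluster of 345 nuclei and a sham cluster of 800 were rich in heat shock RNA, at 11934 and 8891 CPM, against 798 and 637 in the largest cluster of each. Pdk4 was at 1453 (1339.99 to 1573) and 3270.2 (3156 to 3387) there, against 457 (441 to 473) and 1379 (1341 to 1418). Pdk2 was lower in both heat shock clusters, at 165 against 339 untreated and 115 against 201 sham. Slc2a4 was at 421 (361 to 488) against 719 (699 to 739) untreated, and at 241 (211 to 274) against 294 (277 to 313) sham. Hk2 differed less, at 1039.7 (944 to 1142) against 1166 (1141 to 1192) untreated and 505 (461 to 553) against 504 (481 to 528) sham. Pfkl was at 189 against 317 untreated and 144 against 190 sham, and Pgam1 at 122 against 253 and 105 against 155. The heat shock clusters also held more immediate early RNA, at 2897 against 393 CPM untreated and 5374 against 354 sham. Their nuclei had fewer UMIs, with medians of 1149 against 2028 untreated and 1086 against 1521 sham. Denervated clusters had at most 2956 CPM of heat shock RNA, and Pdk4 was between 458 and 546. With the largest cluster of each library alone, which leaves out the clusters rich in heat shock RNA and other clusters too, the log2 ratio of sham to untreated was 1.59 for Pdk4, -1.29 for Slc2a4 and -3.52 for Slc2a5.

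**Figure D4:**
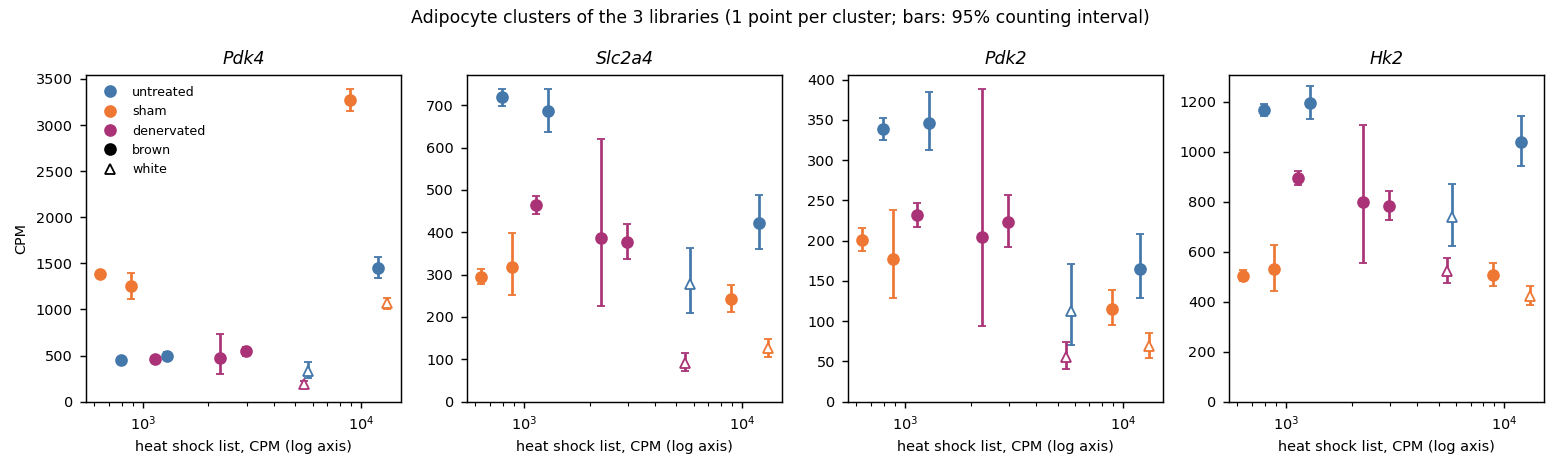
CPM (y axis) of Pdk4, Slc2a4, Pdk2 and Hk2 against summed heat shock genes (x axis, CPM, log scale), 1 point per cluster and colored by library, with 95% Poisson intervals. Filled circles are brown and open triangles white adipocyte-like clusters. Pdk4 reaches 3270.2 in the sham and 1453 in the untreated cluster rich in heat shock RNA.

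White adipocyte-like nuclei (136 untreated, 871 sham, 877 denervated) had less of 9 members than BAs of the same library, and too few UMIs of Slc2a1 to compare. A cluster was named white where white marker UMIs passed 25% of brown ones. Summed white markers were at 2364, 2506 and 2009 CPM in this class, against 329, 217 and 536 in BAs. Its brown markers summed to more, 2801, 4576 and 2022. Of these, Adrb3 alone was higher than in BAs, at 1557, 3180 and 963 against 583, 1769 and 613. The class was therefore not read as white adipocytes alone. Slc2a4 was at 277 (208 to 362) untreated, 126 (106 to 148) sham and 91.8 (72.0 to 115) denervated CPM, 2.52-, 2.26- and 4.88-fold below BAs. Hk2 stood closer to BAs, 1.57-, 1.19- and 1.67-fold below. Pdk4 was again highest in the sham library, at 1066 (1008 to 1128) against 334 (258 to 426) untreated and 195 (166 to 228) denervated. For Slc2a5 in the sham library the interval of the log2 ratio of BAs to white nuclei included 0 (0.68, -0.34 to 1.88). White clusters held 5485 to 13108 CPM of heat shock RNA, whose part in these differences was not tested.

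Endothelial-like nuclei had lower levels than BAs of the 9 members with at least 50 UMIs over both classes in each library, by at least 1.5-fold in all 3 libraries, as did 23.3% of 10012 genes tested, and none of the 9 was higher there (18.1%). At 4-fold in all 3 libraries the counts of members were 0 in both directions (0.849% and 7.26%). Untreated endothelial-like nuclei had Slc2a4 at 79.1 (70.2 to 88.7), Hk2 at 131 (119.8 to 144), Pdk4 at 61.8 (54.0 to 70.4) and Slc2a5 at 18.6 (14.4 to 23.6) CPM, 8.07- to 8.86-fold below BAs. Pgam1 had the smallest difference, 2.23-fold untreated, 2.50-fold sham and 1.55-fold denervated. Slc2a1 was higher in endothelial-like nuclei of the untreated library, at 10.7 (7.59 to 14.6) against 2.16 (1.28 to 3.41). In the other two libraries the intervals of its ratio included 0.

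Adipocyte RNA was present in endothelial-like nuclei beside these levels. All 6 adipocyte markers had UMIs there in each library, and they summed to 1347 untreated, 1311 sham and 2562 denervated CPM, against 6554, 6816 and 6839 in BAs. The log2 ratio of BAs to endothelial-like nuclei was 2.28, 2.38 and 1.42 for these markers. It was 3.15, 3.70 and 1.64 for Slc2a4 and 1.16, 1.32 and 0.64 for Pgam1. Pgam1 thus lay below and Slc2a4 above the summed list in every library. Single adipocyte markers reached 3.65, 4.32 and 1.82, above Slc2a4, and the brown marker list had 2.89, 3.67 and 1.59, inside the interval of Slc2a4 in the sham and denervated libraries. Slc2a4 could therefore not be told apart from adipocyte RNA there. Slc2a4 was at 79.1 CPM in untreated and 144 in denervated endothelial-like nuclei, and Pdk4 at 61.8 and 198. The markers moved the same way. With ambient RNA subtracted, the denervated ratios of Slc2a4, Pgam1 and Pdk4 fell below 0. The ambient share of denervated endothelial-like UMIs was estimated at 112%, more than all of them, and a cap of 90% was subtracted. These signs were therefore not read as a result. The larger denervated endothelial cluster had 3867 CPM of adipocyte markers, Slc2a4 at 207 and Pdk4 at 301. The smaller one had 1238, 79.9 (60.3 to 104) and 92.7 (71.5 to 118).

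**Figure D5:**
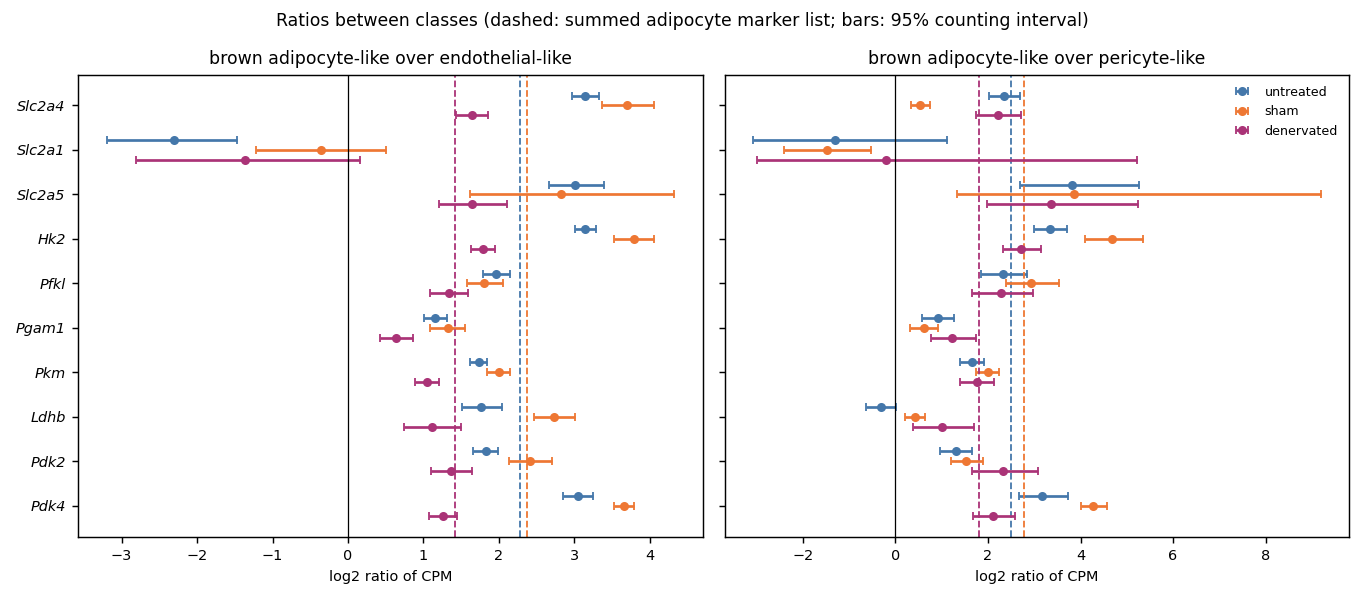
Log2 ratios of CPM (x axis) of the 10 members (y axis) between brown adipocyte-like nuclei and endothelial-like or pericyte-like nuclei in each library, with 95% counting intervals and dashed lines at the ratio of the summed adipocyte markers. Ldhb lies at -0.32 against pericyte-like nuclei of the untreated library.

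Pericyte-like nuclei (656 untreated, 1448 sham, 812 denervated) were compared with BAs and endothelial-like nuclei. The class differed in content between libraries, as summed smooth muscle markers were at 823 untreated, 111 sham and 532 denervated CPM in it, and a smooth muscle-like class was split off in the sham library alone. Ldhb was at 152 (122 to 188) untreated, 179.5 (156 to 205) sham and 53.5 (33.1 to 81.7) denervated CPM, against 35.8, 36.2 and 49.6 in endothelial-like nuclei. In the untreated library the interval of the log2 ratio of BAs to pericyte-like nuclei included 0 (-0.32, -0.63 to 0.02), while the adipocyte markers differed by 2.49. Slc2a4 in sham pericyte-like nuclei was at 196 (171 to 223), against 21.9 (17.2 to 27.5) in endothelial-like nuclei, and the log2 ratio of BAs to pericyte-like nuclei was 0.54 where the markers had 2.77. In the untreated and denervated libraries Slc2a4 had ratios of 2.34 and 2.21, beside 2.49 and 1.80 for the markers. Pgam1 had log2 ratios of BAs to this class of 0.92, 0.61 and 1.23 in the untreated, sham and denervated libraries, below those of the markers in each. Slc2a1 in sham pericyte-like nuclei was at 15.3 (9.08 to 24.2) CPM from 18 UMIs, above the 5.48 (3.58 to 8.02) of sham BAs, while the other libraries had 3 and 1 UMIs of it in this class. Hk2 was 10.1-, 25.8- and 6.60-fold lower than in BAs.

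Shares of nuclei with a UMI depend on depth, and brown adipocyte-like nuclei had a median of 1815 untreated, 1373 sham and 887 denervated UMIs. Slc2a4 was found in 59.4%, 28.9% and 29.7% of them. With 4201, 2875 and 2924 nuclei thinned to 800 UMIs, the shares were 37.8%, 20.1% and 29.8%. Thinning sets the depth equal but also leaves out the nuclei under 800 UMIs, and of 3425 sham and 4988 denervated nuclei the larger part was left out in the denervated library. The effects of these changes on the shares cannot be told apart. Hk2 was in 77.1%, 42.7% and 48.7% before and 56.5%, 30.7% and 47.2% after thinning. Pdk4 was in 49.0%, 74.3% and 30.9% before and 30.3%, 63.1% and 26.5% after. Endothelial-like nuclei, with medians of 666, 513 and 403 UMIs, had Slc2a4 in 4.88%, 1.96% and 15.1% of those thinned, and Pdk4 in 4.32%, 9.62% and 20.6%. These came from 1783, 1123 and 350 nuclei, so the denervated shares rest on the deepest of 2699. Over all endothelial-like nuclei Slc2a4 was in 4.39%, 1.20% and 5.67%, and Pdk4 in 3.63%, 5.73% and 7.0%. Slc2a1 was in 0.393%, 0.701% and 0.200% of BAs and in 0.739%, 0.417% and 0.296% of endothelial-like nuclei. In thinned nuclei the shares were 0.119%, 0.417% and 0.137% in BAs and 0.841%, 0.445% and 0.571% in endothelial-like nuclei, so in no library was the share in BAs read as expression.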

How the data were processed

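Per the file headers, the untreated and denervated tables came from the BD Rhapsody pipeline, version 1.9, with GRCm38 and a GENCODE annotation. The sham table has no header. The submitters' processing notes name Seurat 4.0.6 and GRCh38, a human build, though headers and gene names are of the mouse. The values are raw UMI counts that the authors deposited, whole and not normalized. Whether introns or strand were used in counting is not given in the sources used here. The study's removal of debris (DIEM) and ambient RNA (decontX) was not repeated.

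A barcode was kept if it had 200 or more genes detected and no more than 50% of its UMIs from mitochondria. Doublets (1130 untreated, 2007 sham, 705 denervated) were barcodes with 3 or more UMIs from a pair of lists that exclude each other, the lower sum being 25% or more of the higher. Each library was clustered alone (2000 variable genes without members and pathway genes, 30 principal components, 20 neighbours, Louvain resolution 0.5), and adipocyte clusters were split again. Clusters were named from marker lists by rules set after they were seen, and values may differ from the study's for that reason. UMIs were summed per class and library. Intervals are exact (Poisson, Clopper-Pearson, conditional binomial for ratios). No test was made, as each condition has 1 library. All members were named. Pathway genes were to be named at 2-fold in the denervated library against both others or at 4-fold between brown adipocyte-like and endothelial-like nuclei in all libraries. None met this, so those named were chosen after their values were seen. Members and lists were chosen with earlier results of these data known. Pgam2 was not analysed here. Gene positions are from GENCODE on GRCm38. Python 3.11.15, numpy 2.4.6, scipy 1.17.1, scikit-learn 1.9.0, igraph 0.11.9 and matplotlib 3.10.9 were used, and the ratio step was tested on simulated counts.

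Alternatives were 500 or more genes, 10% or less mitochondrial UMIs, doublets kept, resolution 1, classes from each nucleus's markers, members kept in the clustering, totals without mitochondrial UMIs, ambient RNA subtracted, thinning to 800 UMIs, centring, mean log2 of counts per 10000 plus 1, no filter on low counts and 2-fold. The largest brown cluster alone, brown and white nuclei together, and 1 endothelial cluster were added after seeing the data.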

Additional observations from a re-analysis of the deposited data

Results flagged for a closer look

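Members that moved in opposite directions in different classes of nuclei under one contrast were picked out where both counting intervals lay away from 0. With 1 library per condition these differences were not tested. The share of all genes that met the same rule was not worked out, so the length of the list was not read as a trait of the members. For denervated over untreated, log2 ratios were below 0 in brown adipocyte-like and above 0 in endothelial-like nuclei for Slc2a4 (-0.64 and 0.86), Slc2a5 (-0.53 and 0.84), Hk2 (-0.41 and 0.95), Pfkl (-0.26 and 0.37), Pgam1 (-0.12 and 0.40), Pkm (-0.32 and 0.36), Ldhb (-0.19 and 0.47) and Pdk4 (-0.11 and 1.68). The ratio of Pdk4 in pericyte-like nuclei was 0.95. Summed adipocyte markers went from 1347 to 2562 CPM in endothelial-like and from 1166 to 1966 in pericyte-like nuclei. Large endothelial clusters with like levels of these markers, 1159 untreated and 1238 denervated, had Hk2 at 112 (99.2 to 126) and 107 (84.1 to 134) CPM, Slc2a5 at 16.8 (12.1 to 22.7) and 17.1 (8.84 to 29.9), and Slc2a4 at 57.6 (48.5 to 67.8) and 79.9 (60.3 to 104). Their intervals overlapped, as did those of Pfkl (69.5 and 85.6), Pkm (213 and 254) and Ldhb (35.6 and 44.2). Of these genes all but Hk2 had the higher value in the denervated cluster. Overlap of 2 intervals can miss differences that the interval of a ratio shows, so equal levels were not read from it. Pgam1 at 122 (109 to 136) and 183 (152 to 217) and Pdk4 at 42.4 (34.7 to 51.2) and 92.7 (71.5 to 118) were higher in the denervated cluster. The intervals of Pgam1 and Pdk4 did not overlap. These 2 clusters were alike in adipocyte markers only. Heat shock genes were at 878 CPM in the untreated and 2479 in the denervated one, and immediate early genes at 856 and 3937. Mitochondrial UMIs made up 10.3% and 6.88%. The part of these in the differences was not tested. In brown adipocyte-like nuclei the ratio of Pdk4 turned to 0.00302 with the largest cluster of each library alone.

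For denervated over sham, Ldhb had -1.17 in brown adipocyte-like and 0.45 in endothelial-like nuclei, and Pdk4 had -1.89 and 0.51, where the endothelial-like adipocyte markers went from 1311 to 2562. In the sham cluster with 1358 CPM of these markers and the denervated one with 1238, Ldhb was at 37.9 and 44.2, with overlapping intervals, and Pdk4 at 144 (131 to 159) and 92.7 (71.5 to 118), lower in the denervated cluster. Heat shock genes were at 3835 CPM in this sham and 2479 in this denervated cluster, and immediate early genes at 1792 and 3937. Mitochondrial UMIs made up 13.5% and 6.88%, and the part of these in the Pdk4 difference was not tested. Slc2a4 had 0.65 in brown adipocyte-like, -0.45 in white adipocyte-like and -1.02 in pericyte-like nuclei. For sham over untreated, Slc2a4 had -1.30 in brown adipocyte-like and 0.51 in pericyte-like nuclei, where adipocyte markers were at 997 sham and 1166 untreated. Smooth muscle markers in pericyte-like nuclei were at 823 untreated, 111 sham and 532 denervated CPM, so this class held different nuclei in the libraries, and the part of that in its ratios was not tested.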

How the results depend on the processing

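Of 390 recomputed log2 ratios of members between libraries, 320 stayed within the counting interval and 70 moved outside it. Of 389 between classes, 256 stayed. The denervated over untreated ratio of Slc2a4 was under 1.5-fold with at least 500 detected genes (-0.55) and after thinning to 800 UMIs (-0.43). With ambient RNA subtracted, the ratio of brown adipocyte-like to endothelial-like nuclei in the denervated library became -0.11 for Slc2a4, -0.41 for Pgam1 and -0.51 for Pdk4. There the estimated ambient share of endothelial-like UMIs was 112%, and 115% in the sham library, and 90% was subtracted in both. With the large endothelial cluster lowest in adipocyte markers the denervated ratio was 2.49 for Slc2a4 and 2.35 for Pdk4. The median over members for denervated over sham went from 0.42 to 0.58 after thinning, which also leaves out nuclei under 800 UMIs. For sham over untreated it became -0.90 with classes from the markers of each nucleus and -0.92 with brown and white nuclei together. The cause was not tested. At 2-fold, 1 member was lower in the sham library than in both others, by a stricter threshold. With the mean log2 of scaled counts, denervated over sham was -0.13 for Pkm and -0.03 for Pdk2, against 0.16 and 0.33. Pgam1, denervated over untreated, changed sign after thinning (0.12), and Pdk4 with the largest brown clusters alone (0.00302). No paired analysis was possible because each condition has 1 library. Low counts limit Slc2a1 in each class and Slc2a5 in the sham library. Sham brown adipocyte-like nuclei held 59 UMIs of Slc2a5 and denervated ones 519, of totals of 4748510 and 4987674 UMIs.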

Other observations

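Smaller classes also held UMIs of the members. Smooth muscle-like nuclei formed a class of their own in the sham library alone (458 nuclei), while in the untreated and denervated libraries smooth muscle markers were at 823 and 532 CPM in pericyte-like nuclei. The sham class had Slc2a4 at 157 (116 to 207) CPM and summed adipocyte markers at 865. Schwann-like sham nuclei (134) had Pdk4 at 409 (285 to 569), from 35 UMIs, with adipocyte markers at 1918. Denervated fibroblast-like nuclei (77) had Hk2 at 645 (441 to 910.2), from 32 UMIs, with adipocyte markers at 1592, and denervated immune-like nuclei (259) had Hk2 at 363 (274 to 472), with adipocyte markers at 1739.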
